A study of Mus musculus with 36 samples.

Results

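The genes described here are 9 genes of cardiac conduction, chosen by name and with earlier results of these data known. They are the potassium channel genes Kcnj2, Kcnd2, Kcnq1 and Kcna5, the channel subunit gene Kcnip2, the pacemaker channel genes Hcn4 and Hcn2, and the connexin genes Gja1 and Gja5. All 9 names matched a single Ensembl gene ID among the 78239 gene IDs counted. RNA was sequenced from heart, kidney and liver of wild-type male C57BL/6NCrl mice, an inbred substrain, in groups aged 8, 10 and 12 weeks, which compares late adolescence with young adulthood. There were 4 libraries for each of the 9 combinations of tissue and age, 36 in all, and no group received a treatment or carried a transgene or deletion. All mice were bought before 8 weeks of age, shared cages in small groups and were anaesthetised with ketamine and xylazine before the organs were taken, so these conditions are common to every group. The labels do not say which kidney, liver and heart came from the same animal, and the part of the heart that was homogenised is not given in the sources used here.

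A heartbeat begins when pacemaker cells depolarise through HCN channels, passes from cell to cell through gap junctions built of connexins, and ends when potassium channels repolarise the membrane. In mouse ventricle, repolarisation is fast and rests largely on the transient outward current, whose pore is formed by Kcnd2 together with Kcnd3 and whose cytosolic partner is Kcnip2, and on the delayed rectifier current of Kcna5, while Kcnj2 holds the resting potential. Gja1 encodes the main connexin of working myocardium, Gja5 a connexin of atrium, the fast conduction system and arterial endothelium, and Hcn4 is known as the main pacemaker subunit of the sinoatrial node.

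In the GENCODE M39 annotation of GRCm39, Kcnj2 (ENSMUSG00000041695) lies at chr11:110956981-110967665 on the plus strand, Kcnd2 (ENSMUSG00000060882) at chr6:21214866-21729804 on the plus strand and Kcnip2 (ENSMUSG00000025221) at chr19:45780278-45804836 on the minus strand. Kcnq1 (ENSMUSG00000009545) lies at chr7:142660099-142980788 on the plus strand and Kcna5 (ENSMUSG00000045534) at chr6:126509514-126512375 on the minus strand. The pacemaker genes Hcn4 (ENSMUSG00000032338, chr9:58730132-58770458) and Hcn2 (ENSMUSG00000020331, chr10:79552120-79571948) and the connexin genes Gja1 (ENSMUSG00000050953, chr10:56253241-56278609) and Gja5 (ENSMUSG00000057123, chr3:96812009-96984732) are all on the plus strand. Genes on the opposite strand overlap 1208 exon bases of Kcnq1 (Kcnq1ot1 and 4933417O13Rik), 304 of Hcn2 (Gm66204), 165 of Gja5 (Gpr89), 143 of Gja1 (Gm68148) and 4 of Kcnj2 (Gm57334), and none overlaps exons of the other 4 genes.

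The sequences below show what sets the channel genes apart from the connexin genes, and how near to each other the connexins are. Kcnj2, Kcnd2, Kcna5 and Hcn4 are each shown with 27 bases around the 3 codons, in capitals, of the glycine-tyrosine-glycine motif that lines the ion selectivity filter. Each connexin gene is shown with 36 bases of the first extracellular loop, with the 3 cysteine codons in capitals. All are coding exon sequence of GRCm39, printed 5′ to 3′ on the strand of the gene. Kcnip2 encodes a subunit without a pore and has no such stretch.
Kcnj2: acaaccattGGCTATGGTttcaggtgt
Kcnd2: acaacactgGGGTATGGCgacatggta
Kcna5: accactgtaGGCTACGGGgacatgagg
Hcn4: ctgtgcattGGGTATGGAcggcaggca
Gja1: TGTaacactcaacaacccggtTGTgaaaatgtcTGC
Gja5: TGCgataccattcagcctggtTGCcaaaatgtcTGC
The 3 potassium channel genes shown differed from each other at 10 to 11 of the 27 bases and from Hcn4 at 15 to 19. Gja1 and Gja5 differed at 11 of 36. The Kcnj2 stretch lies at chr11:110963030-110963056 on the plus strand, in the only coding exon of the gene. For Kcnd2 it starts at position 21217402 of chromosome 6, in coding exon 1, and ends at 21714149, in coding exon 2, so that an intron splits it. The Kcna5 stretch lies at chr6:126510699-126510725 on the minus strand, in a gene with 1 exon. That of Hcn4 (chr9:58762865-58762891) lies in coding exon 4. The connexin stretches lie in the single coding exons of Gja1 (chr10:56263802-56263837) and Gja5 (chr3:96958104-96958139). Among the members, stretches of 50 bases that another gene's transcripts also hold made up 19.9% of those in Kcnq1, shared with its antisense transcript Kcnq1ot1 and 4933417O13Rik, 14.6% in Gja5, shared with Gpr89 and Zfp697, 5.37% in Hcn2 and 2.81% or less in the other 6 genes.

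Between 21031599 and 33637390 read pairs were counted on genes per library, and between 21743131 and 29791297 in heart. Levels are given as CPM, the count of a gene brought to a common library size, with edgeR's TMM factors over all 36 libraries. The heart libraries carried ventricular myosin light chain Myl2 at 4860 to 7880 CPM, whereas the defining atrial genes Myl7 (0.0427 to 1.03 CPM), Sln (0 to 0.26 CPM) and Bmp10 (0 to 0.041 CPM) were at or near 0. The 7 atrial markers together reached 19.7 to 46.8 CPM. This sum may understate Nppa, which had a mean of 8.28 CPM here and 140 CPM (60.9 to 262) in the columns counted by strand. Pairs fell evenly on both strands, as in libraries that do not mark strand, so the added pairs cannot be assigned to Nppa or to an overlapping gene. In such a bulk sample fewer cells of a type and less RNA per cell cannot be told apart.

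In heart all 9 genes were expressed in every library. Of the repolarising channels, Kcnj2 was at 61.8 ± 7.87 CPM, Kcnd2 at 32.4 ± 6.81, its partner Kcnip2 at 193 ± 21, Kcnq1 at 31.9 ± 5.39 and Kcna5 at 41.6 ± 8.48 (SD, n = 12 each). The pacemaker genes Hcn4 and Hcn2 were at 14.6 ± 2.08 and 27.9 ± 3.41 CPM, and the connexin genes Gja1 and Gja5 at 400.1 ± 96.4 and 5.74 ± 0.798 CPM (SD, n = 12 each). The 9 genes together made up 700.1 to 979.2 CPM, and Gja1 alone gave 48.85% of their counts. Since a long transcript yields more reads, levels between genes were compared per kilobase of exon (the union of all annotated exons). On that scale Kcnip2 came first with 48.1 ± 5.23 CPM per kb, followed by Gja1 (32.5 ± 7.84), Kcna5 (14.55 ± 2.96), Kcnj2 (11.3 ± 1.44), Hcn2 (7.86 ± 0.960), Kcnq1 (6.23 ± 1.05), Kcnd2 (5.595 ± 1.18), Hcn4 (2.18 ± 0.312) and Gja5 (0.962 ± 0.134). The ranges over the 12 hearts separated Gja1 from Kcna5, Kcnd2 from Hcn4 and Hcn4 from Gja5, and neighbours in the rest of this order overlapped. With the length of the longest transcript instead, Gja1 (70.05 CPM per kb) stood above Kcnip2 (61.9) and Kcnq1 (10.2) above Hcn2 (7.86), so these positions depend on which length is used. The ranges of Hcn4 (lowest 1.82) and Gja5 (highest 2.04) then overlapped too. Pairs on bases shared with another gene were left out, and such bases are 23.5% of the exon bases of Kcnq1. In heart the columns counted by strand gave 47.0 CPM for Kcnq1 and 29.8 for Hcn2, so their order may also depend on the counting.

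The variation between hearts was uneven among the members. The coefficient of variation over the 12 libraries was highest for Gja1 (24.1%), Kcnd2 (21%) and Kcna5 (20.4%) and lowest for Kcnip2 (10.9%), with the remaining 5 genes between 12.2% and 16.9%. Kcnd2 had 47.3% of its variance on the log2 scale between the ages, Kcnip2 31.0% and Kcna5 30.2%, and the other 6 genes had 7.88% to 20.3%. With few hearts per age, some variance falls between ages even without an effect of age. These shares are a description and were not tested.

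**Figure D1:**
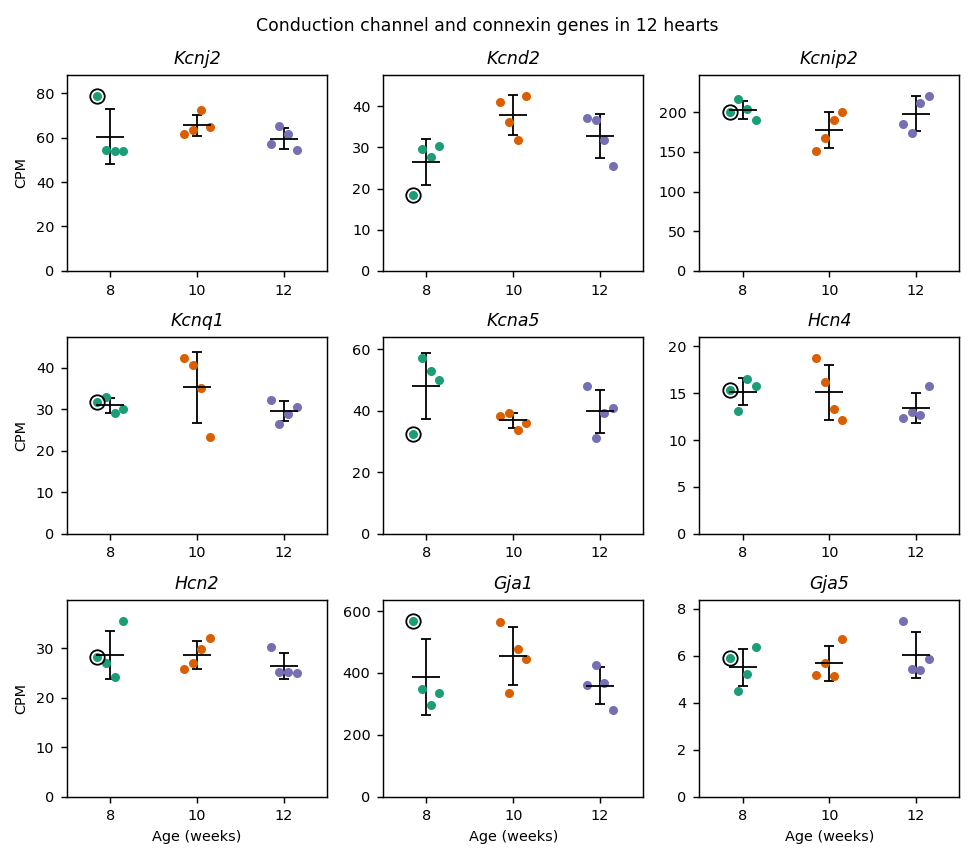
Levels of the 9 genes in heart (y axis, CPM from 0) by age (x axis, weeks). Each point is a library, horizontal lines are means with SD bars (n = 4), and the circled point is 8-week replicate 1, which is the highest of its age in Kcnj2 (78.9 CPM) and Gja1 (568 CPM) and the lowest in Kcnd2 (18.4 CPM) and Kcna5 (32.5 CPM).

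The first question was how far these genes are particular to heart. All 9 were higher in heart than in kidney and all 9 higher than in liver, while 86.1% and 84.2% of the 19716 genes tested differed between heart and these tissues in either direction, and 39% and 42% were higher in heart (edgeR quasi-likelihood test with Benjamini-Hochberg adjusted p under 0.05). With so many genes different, the sizes say more than the calls. The median of all genes lay at −0.15 log2 units against kidney and at 0 against liver. The libraries of heart and kidney did not overlap for 8 of the 9 genes, Gja5 being the exception, and those of heart and liver did not overlap for any of the 9. Among all genes tested, 57.6% did not overlap between heart and kidney and 53% between heart and liver, and 26.7% and 27.2% did so with heart higher.

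Hcn4, Kcnd2, Kcnip2 and Kcna5 were at or near 0 in liver, and Hcn4 and Kcnd2 in kidney as well. Over 12 libraries, 24 read pairs were counted on Hcn4 in kidney and 4 in liver, against 4191 in heart, which put heart 272 times above kidney (95% Poisson interval 183 to 424, covering counting error only) and 911 times above liver (356 to 3340). Kcnd2 had 82 pairs in kidney and 11 in liver against 9334 in heart, ratios of 177 (143 to 223) and 738 (412 to 1480). Kcnip2 was measurable in kidney at 1.55 ± 0.658 CPM (SD, n = 12), a difference of 6.97 ± 0.16 log2 units (SE; edgeR, Benjamini-Hochberg adjusted p = 1.17e-29), but had only 6 pairs in all 12 livers, 8110 times below heart (3720 to 22100). Kcna5 was at 1.17 ± 0.414 CPM in kidney, 5.15 ± 0.15 log2 units below heart, and had 13 pairs in liver, 802 times below heart (469 to 1510). Kcnd2, Kcnip2 and Hcn4 were thus at or below 2.64 CPM in every kidney and liver library. Kcnd3, the other pore gene of the transient outward current, reached 3.08 CPM in kidney.

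The other 5 genes were expressed in kidney or liver too. Gja1 was at 4.73 ± 0.816 CPM in kidney and 7.23 ± 2.58 in liver, 6.39 ± 0.16 and 5.79 ± 0.16 log2 units below heart. Kcnj2 was at 5 ± 1.70 CPM in kidney (3.65 ± 0.11 log2 units below heart) and at 0.721 ± 0.259 in liver (6.42 ± 0.15 below). Hcn2 was at 1.72 ± 0.273 and 0.848 ± 0.274 CPM, 4.02 ± 0.10 and 5.05 ± 0.12 log2 units below heart. Among the members, Kcnq1 and Gja5 were nearest to their level in heart.

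Kcnq1 was the member with the highest level in kidney, at 14.5 ± 1.61 CPM or 2.82 ± 0.315 CPM per kb, with no overlap in range with the next gene, Kcnj2. Its known partner Kcne1 was at 13.1 ± 1.64 CPM in kidney and 4.03 ± 1.48 in heart (SD, n = 12 each). Its difference between heart and kidney was 1.14 ± 0.08 log2 units (edgeR, Benjamini-Hochberg adjusted p = 1.22e-15), and that between heart and liver 5.01 ± 0.10. Antisense genes overlap 23.5% of its exon bases, and pairs on bases of more than 1 gene were left out of the counts without regard to strand. The columns counted by strand held 1.47 times as many pairs in heart, 1.47 times in kidney and 1.5 times in liver, a like factor in every tissue, and the difference to kidney was 1.10 log2 units in the first-strand column.

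Gja5 was at 5.74 ± 0.798 CPM in heart, 3.34 ± 0.846 in kidney and 0.800 ± 0.352 in liver (SD, n = 12 each), which gave differences of 0.78 ± 0.14 log2 units to kidney (edgeR, Benjamini-Hochberg adjusted p = 7.21e-06) and 2.82 ± 0.17 to liver. These values depend on how pairs on the overlapping antisense gene Gpr89 were handled. The strand columns held 1.29 times as many Gja5 pairs in heart, 1.75 times in kidney and 5.13 times in liver, and gave mean levels of 7.35, 5.85 and 4.18 CPM. Between 49.82% and 50.24% of the pairs counted by strand fell on the first strand in every library, as in libraries that do not mark strand, so the added pairs cannot be assigned to Gja5 or to Gpr89. In the first-strand column the differences were 0.31 log2 units to kidney (adjusted p = 0.00279) and 0.76 to liver, and scaling by library size alone gave 0.25 to kidney (adjusted p = 0.105), where the median of all genes lay at −0.67. Heart had the highest mean in each of these, while the size of the difference changed with the counting.

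**Figure D2:**
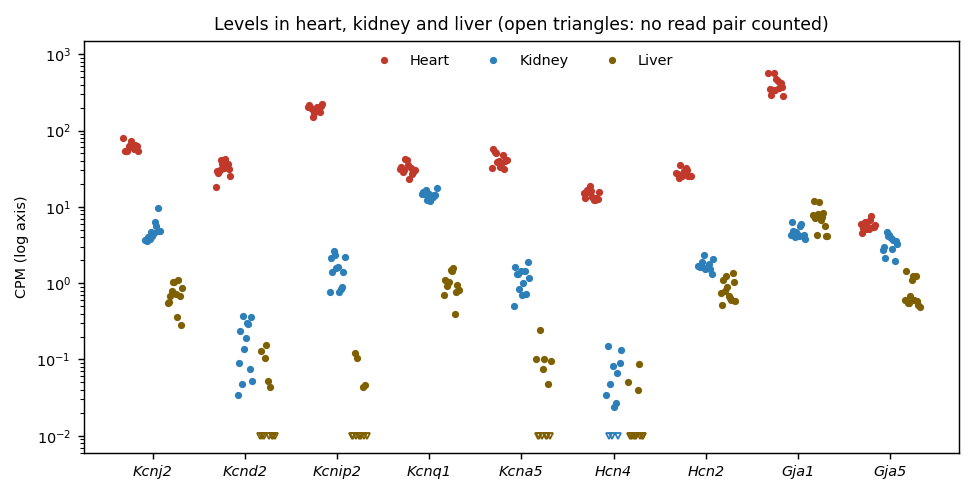
CPM of the 9 genes (x axis) in the 12 libraries of heart, kidney and liver (y axis, log axis; colours mark the tissue, open triangles at the bottom mark libraries with no read pair). Heart lies above both other tissues for all genes except Gja5, whose kidney libraries reach its lowest heart libraries, and Kcnd2, Kcnip2, Kcna5 and Hcn4 have libraries without a pair in liver.

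The second question was whether the genes changed in heart between 8 and 12 weeks. None of the 9 passed an adjusted p under 0.05 at 12 against 8 weeks, where 4.56% of the 15137 genes tested in heart passed, nor at 10 against 8 weeks (1.06%) or 12 against 10 weeks (0.0396%; edgeR quasi-likelihood test, Benjamini-Hochberg adjustment over all genes). At an unadjusted p under 0.05 the members numbered 0, 2 and 0 in these comparisons, against 23.4%, 15.8% and 11.7% of all genes. By DESeq2 the counts past the adjusted p were 0, 1 and 0. The median log2 difference of the members was −0.07, 0.04 and −0.15, and that of all genes 0.00 in each. The 95% intervals of the 27 differences ran from −0.733 to 0.825 log2 units, and all but those of Kcnd2 and Kcna5 at 10 against 8 weeks included 0.

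Kcnd2, a pore gene of the transient outward current, had the largest difference of any member in heart when all libraries were used. In replicates 1 to 4 it was at 18.4, 29.7, 27.6 and 30.3 CPM at 8 weeks, at 40.9, 36.2, 31.9 and 42.6 CPM at 10 weeks, and at 37.1, 36.7, 31.8 and 25.6 CPM at 12 weeks. Every 10-week heart was above every 8-week heart, whereas the 12-week hearts overlapped both. Kcnd2 was the 1 member of 9 without overlap at 10 against 8 weeks, where 9.73% of all genes did not overlap. None of the 9 was without overlap at 12 against 8 weeks (12.7% of all genes) or 12 against 10 weeks (6.08%). The difference between 10 and 8 weeks was 0.52 ± 0.15 log2 units (SE; 37.9 ± 4.83 against 26.5 ± 5.55 CPM, SD, n = 4), with an unadjusted p of 0.00257 and a Benjamini-Hochberg adjusted p of 0.102 in edgeR. It passed with DESeq2 (adjusted p = 0.0353) and without a filter on low counts (2.53e-05), and its adjusted p lay between 0.0654 and 0.25 over the other settings. At 12 against 8 weeks the difference was 0.30 ± 0.15 log2 units (adjusted p = 0.225). Without 8-week replicate 1, the lowest heart, these differences were 0.38 ± 0.12 and 0.16 ± 0.12 log2 units (edgeR, adjusted p = 0.117 and 0.445). At 10 against 8 weeks Kcna5 (−0.53) and Gja1 (0.48) then differed more than Kcnd2.

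Kcnip2, whose product binds the Kcnd2 channel and carries it to the membrane, was at 201, 217, 204 and 189.9 CPM at 8 weeks, 151, 167, 191 and 201 CPM at 10 weeks, and 186, 174, 212 and 221 CPM at 12 weeks, and the 3 ages overlapped. Its difference at 10 against 8 weeks was −0.19 ± 0.10 log2 units, opposite in sign to that of Kcnd2 (edgeR, adjusted p = 0.341). Within a library, the ratio of Kcnd2 to Kcnip2 counts was 0.0915, 0.137, 0.135 and 0.16 at 8 weeks, 0.271, 0.216, 0.167 and 0.212 at 10 weeks, and 0.2, 0.211, 0.15 and 0.116 at 12 weeks. The ratios at 8 and 10 weeks did not overlap and differed by 0.74 log2 units, with a two-sided exact permutation p of 0.0286, the smallest that 4 against 4 libraries can give. Adjusted over the 9 ratio tests made, this p became 0.257.

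Kcna5, the ultrarapid delayed rectifier, was at 32.5, 57.1, 52.9 and 50.2 CPM at 8 weeks, at 38.4, 39.4, 33.7 and 36 CPM at 10 weeks, and at 48.1, 31.1, 39.3 and 41.0 CPM at 12 weeks. Replicates 2 to 4 at 8 weeks were the 3 highest libraries of all 12, and replicate 1 was below every 10-week library. With all libraries the difference was −0.39 ± 0.15 log2 units at 10 against 8 weeks (unadjusted p = 0.0161, adjusted p = 0.206 in edgeR) and −0.28 ± 0.14 at 12 against 8 weeks (adjusted p = 0.251). Without 8-week replicate 1 both passed, at −0.53 ± 0.11 log2 units (edgeR, Benjamini-Hochberg adjusted p = 0.0243) and −0.43 ± 0.11 (adjusted p = 0.0372). With all libraries and no filter on low counts, the difference at 10 against 8 weeks also passed (−0.38 log2 units, adjusted p = 0.00487), so the call of Kcna5 depended on this library and on the filter.

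Kcnj2, the inward rectifier, and Kcnq1, the slow delayed rectifier, gave no call with or without this library. Kcnj2 was at 78.9, 54.6, 53.8 and 54.1 CPM at 8 weeks, at 61.7, 63.6, 72.4 and 64.5 CPM at 10 weeks, and at 56.9, 65.0, 61.7 and 54.3 CPM at 12 weeks. Its 8-week replicate 1 was the highest of the 12 hearts, and the other 3 hearts of that age were below or within the range at 12 weeks and below all those of 10 weeks. The difference at 10 against 8 weeks was 0.12 ± 0.11 log2 units with all libraries and 0.28 ± 0.08 without 8-week replicate 1 (edgeR, adjusted p = 0.651 and 0.0857). Kcnq1 was at 31.8, 32.9, 29 and 30.0 CPM at 8 weeks, at 42.3, 40.7, 35.0 and 23.4 CPM at 10 weeks, and at 32.2, 26.5, 29 and 30.5 CPM at 12 weeks. At 10 weeks Kcnq1 held both the highest and the lowest of its 12 values. Its largest difference was −0.26 ± 0.13 log2 units at 12 against 10 weeks (edgeR, adjusted p = 0.458).

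Neither pacemaker gene passed in any comparison of ages in heart. Hcn4 was at 15.4, 13.1, 16.5 and 15.8 CPM at 8 weeks, at 18.7, 16.2, 13.4 and 12.2 CPM at 10 weeks, and at 12.3, 13, 12.6 and 15.7 CPM at 12 weeks. Hcn2 was at 28.2, 26.9, 24.1 and 35.5 CPM, at 25.7, 27.0, 29.8 and 32.1 CPM, and at 30.2, 25.2, 25.1 and 25.0 CPM at the same ages. All ages overlapped in both genes. Differences lay between −0.18 and −0.01 log2 units for Hcn4 and between −0.13 and 0.00 for Hcn2 in the 3 comparisons (edgeR, adjusted p of 0.412 or more). Hcn2 counts were 1.90 ± 0.336 times those of Hcn4 at 8 weeks, 1.98 ± 0.565 at 10 weeks and 1.99 ± 0.353 at 12 weeks (SD, n = 4). In kidney the ratio over all counts was 32.2, with 773 pairs on Hcn2 and 24 on Hcn4, and in heart it was 1.92, which is 3.61 per kilobase of exon.

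Of the connexins, Gja1 differed more between hearts than Gja5. Gja1 was at 568, 347, 295 and 335 CPM at 8 weeks, at 563, 335, 476 and 446 CPM at 10 weeks, and at 361, 424, 368 and 281 CPM at 12 weeks. A single heart of 8 weeks and a single heart of 10 weeks stood above the rest, and the ages overlapped. The differences were 0.24 ± 0.18 log2 units at 10 against 8 weeks and −0.35 ± 0.18 at 12 against 10 weeks (edgeR, adjusted p = 0.568 and 0.47). Without 8-week replicate 1 the first became 0.48 ± 0.15 (adjusted p = 0.0938). Gja5 was at 5.89, 4.52, 5.24 and 6.36 CPM at 8 weeks, at 5.16, 5.67, 5.14 and 6.71 CPM at 10 weeks, and at 7.47, 5.42, 5.41 and 5.84 CPM at 12 weeks, with overlapping ages and differences of 0.04 to 0.12 log2 units. The Gja1 to Gja5 ratio of counts was 70.3 ± 20.2, 81.6 ± 23.1 and 60.5 ± 15.0 at the 3 ages (SD, n = 4), and was 1.42 over all kidney counts and 9.04 over all liver counts. Apart from Kcnd2 to Kcnip2 at 10 against 8 weeks, the ratio tests of all 3 pairs gave exact permutation p-values from 0.143 to 0.943.

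**Figure D3:**
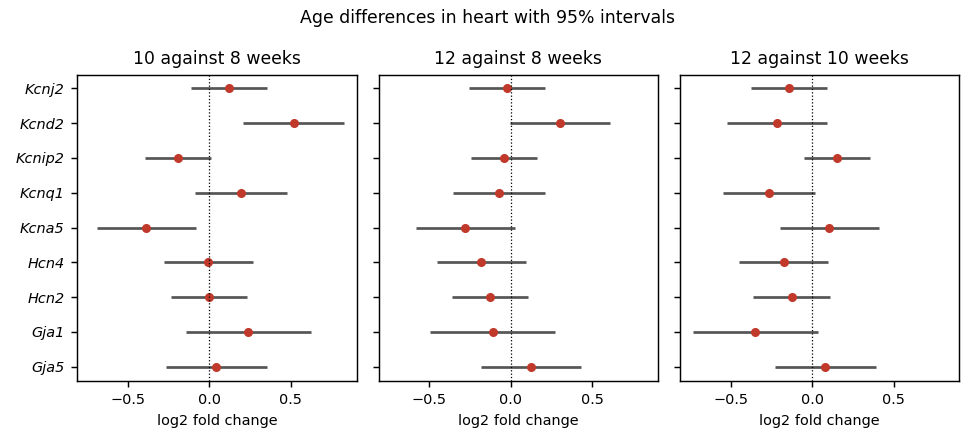
Log2 fold change (x axis) of the 9 genes in heart (y axis) between ages, with 95% intervals from edgeR as bars and a dotted line at 0. Only Kcnd2 (0.52) and Kcna5 (−0.39) at 10 against 8 weeks have intervals that leave out 0, and neither passed the adjusted p.

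Some lists of marker genes for other cell types differed in level between the same hearts. The 6 fibroblast markers summed to 731.9 to 771.0 CPM at 8 weeks, 839.7 to 1083.8 at 10 weeks and 785.8 to 914.4 at 12 weeks. Of these, 2 rose at 10 against 8 weeks (Col3a1 and Pdgfra; edgeR, Benjamini-Hochberg adjusted p under 0.05), where 1.06% of all genes passed. Pdgfra also rose at 12 against 8 weeks (4.56% of all genes). The 6 arterial endothelial markers summed to 100.1 to 110.7 CPM at 8 weeks, 72.0 to 96.8 at 10 weeks and 71.1 to 93.4 at 12 weeks. None of the 6 passed at 10 against 8 weeks, and Sox17 alone did at 12 against 8 weeks, where it fell. Of the 7 cardiomyocyte markers only Ryr2 passed and of the 5 ventricular markers only Myl2, both higher at 12 against 8 weeks. The 5 hepatocyte markers summed to 0.124 to 0.577 CPM at 8 weeks, 1.4 to 24.2 at 10 weeks and 0.723 to 3.94 at 12 weeks. In liver itself the 9 members together had a mean of 10.75 CPM. The part of these cell types in the differences of Kcnd2, Kcna5 and Gja1 was not tested.

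In kidney, 7 of the 9 genes passed the filter on low counts, Kcnd2 and Hcn4 being left out, and none passed the adjusted p at 12 against 8 (0.0567% of 17649 genes passed), 10 against 8 (0.929%) or 12 against 10 weeks (0.482%; edgeR, Benjamini-Hochberg adjustment). At an unadjusted p under 0.05 the members numbered 1, 1 and 0, against 11.7%, 16.5% and 16.4% of all genes. DESeq2 called 0 in each. Kcnj2 gave the largest difference. It was at 3.72, 3.55, 4.04 and 3.82 CPM at 8 weeks, at 4.71, 4.21, 4.61 and 6.26 CPM at 10 weeks, and at 5.64, 9.78, 4.78 and 4.83 CPM at 12 weeks. All 8 libraries of the later ages were above all 4 of 8 weeks. Of all genes, 6.49% did not overlap at 12 against 8 weeks and 8.98% at 10 against 8 weeks, and of the 7 members Kcnj2 alone in each. At 12 against 10 weeks none of the 7 was without overlap (9.13% of all genes). The difference at 12 against 8 weeks was 0.73 ± 0.21 log2 units (unadjusted p = 0.00328, adjusted p = 0.229 in edgeR) and that at 10 against 8 weeks 0.41 ± 0.21 (adjusted p = 0.351). Without 12-week replicate 2, at 9.78 CPM, the first was 0.43 ± 0.14 log2 units, still without overlap (adjusted p = 0.559). Kcnq1 was at 14.7, 15.9, 14.7 and 16.4 CPM at 8 weeks and at 12.5, 14.9, 11.9 and 13 CPM at 10 weeks, a difference of −0.22 ± 0.09 log2 units (edgeR, adjusted p = 0.24).

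In liver, 5 of the 9 genes passed the filter, without Kcnd2, Kcnip2, Kcna5 and Hcn4. None passed the adjusted p at 12 against 8 (0.239% of 14672 genes passed), 10 against 8 (0.0204%) or 12 against 10 weeks (0.0545%; edgeR, Benjamini-Hochberg adjustment). DESeq2 called 0 in each. The numbers at an unadjusted p under 0.05 were 0, 0 and 1, against 15.1%, 14.3% and 14.1% of all genes. The 1 gene was Kcnq1, at 1.04, 1.49, 1.45 and 1.59 CPM at 10 weeks and 0.390, 0.769, 0.942 and 0.824 CPM at 12 weeks. The libraries did not overlap, as for 8.09% of all genes, with −0.94 ± 0.28 log2 units (unadjusted p = 0.00556, adjusted p = 0.162 in edgeR) on 9 to 40 read pairs per library. This Kcnq1 difference depended on the strand counted, at −1.13 log2 units in the first-strand column and −0.48 in the second (edgeR, adjusted p = 0.0991 and 0.559). None of the 5 genes was without overlap at 12 against 8 (7.95% of all genes) or 10 against 8 weeks (9.47%).

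Whether the change from 8 to 12 weeks differed between tissues was tested as an interaction over all 36 libraries. None of the 9 genes passed between heart and kidney, where 0.112% of 19716 genes did, or between heart and liver (4.16%; edgeR, Benjamini-Hochberg adjustment). At an unadjusted p under 0.05 there were 1 and 0, against 11.1% and 18.4% of all genes. The lowest p was that of Kcnj2 between heart and kidney. Its change in heart minus that in kidney was −0.75 ± 0.26 log2 units, with an unadjusted p of 0.00677 and an adjusted p of 0.258.

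The members were then compared with each other over the 12 hearts, on the log2 scale. Of the 36 pairs, 2 passed an adjusted p under 0.05 (permutation test, Benjamini-Hochberg over the 36 pairs) and 5 an unadjusted one. Kcnj2 and Kcna5 were opposed, with Pearson r = −0.83 (permutation p = 0.00055, adjusted p = 0.0198) and Spearman rho = −0.87 (permutation p = 0.00046). The r was −0.85 without the 2 hearts farthest from the median of Kcnj2, −0.90 after the mean of each age was removed and between −0.88 and −0.81 with any heart left out. Kcnj2 and Gja1 went together, with r = 0.80 (permutation p = 0.00165, adjusted p = 0.0297) and rho = 0.86 (permutation p = 0.00064). Here r was 0.68 without the 2 farthest hearts, 0.77 after the age means were removed, where the pair no longer passed (adjusted p = 0.0567), and between 0.72 and 0.92 with any heart left out. Without 8-week replicate 1 neither pair passed the adjusted p, at r = −0.84 (adjusted p = 0.0515) and r = 0.72 (adjusted p = 0.146). Kcnd2 and Kcnip2 gave r = −0.55 (permutation p = 0.0627, adjusted p = 0.323). All values of a heart come from the same library and share its scaling factor.

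Collection time is not given in the sources used here, and the clock gene Per2, whose level follows the time of day in many tissues, varied with the same members. Per2 was at 22.4, 47.5, 49.8 and 49.9 CPM at 8 weeks, at 15.1, 43.7, 18.9 and 19.3 CPM at 10 weeks, and at 25.7, 27.8, 25.4 and 38.9 CPM at 12 weeks. The hearts with the most Gja1, 8-week replicate 1 and 10-week replicate 1, were among those with the least Per2, and 10-week replicate 2, with the least Gja1 of its age, had the most Per2 of that age. The r of Per2 with Gja1 was −0.84 over the 12 hearts and −0.92 after the age means were removed, given as a description because this gene was picked after the levels were seen. The part of the time of day in the differences between hearts was not tested.

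**Figure D4:**
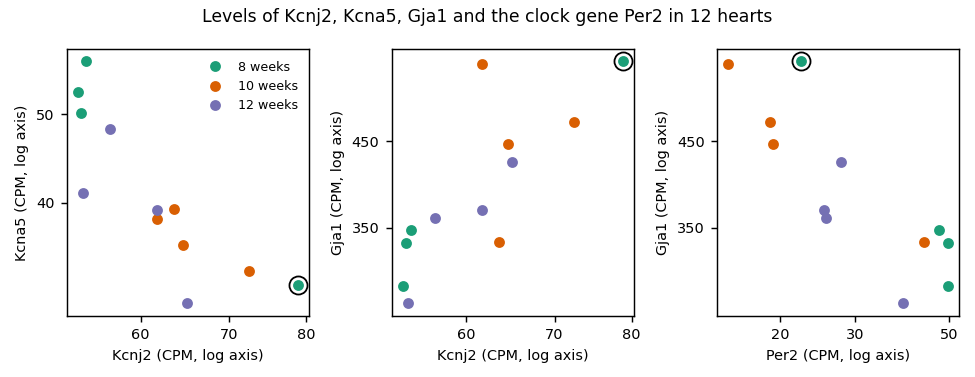
Levels in the 12 hearts plotted against each other (CPM, all axes log axes; colours mark age, the circle marks 8-week replicate 1): Kcna5 against Kcnj2 (r = −0.83), Gja1 against Kcnj2 (r = 0.80) and Gja1 against Per2 (r = −0.84). Hearts high in Kcnj2 are low in Kcna5 and high in Gja1, and those high in Per2 are low in Gja1. Per2 with Gja1 has the largest r in size among the clock genes and members compared.

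Among the 9855 genes with a mean of at least 5 CPM in heart, those whose log2 level was most like a member over the 12 hearts were named, as a description. They were Wdr75 (r = 0.90) and Khdrbs1 (0.88) for Kcnj2, Cyp1b1 (0.95) and Ppp1cc (0.93) for Kcnd2, Tppp (0.87) and Gin1 (0.82) for Kcnip2, Bscl2 (0.88) and Bicd2 (0.76) for Kcnq1, and Sec14l1 (0.91) and Mad1l1 (0.90) for Kcna5. Those for Hcn4 were Pheta1 (0.89) and Srrt (0.87), for Hcn2 Mfsd3 (0.86) and Rnf130 (0.82), for Gja1 Elavl1 (0.95) and Rian (0.93), and for Gja5 Tmem199 (0.87) and 2210408F21Rik (0.87). Since each is the best of 9855 genes over 12 points, such values are high by selection.

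Because some members are known as atrial or conduction system genes, their levels were set against the mean log2 level of the 7 atrial markers. None of the 9 passed (permutation test, Benjamini-Hochberg over 9), with r from −0.32 for Kcnip2 to 0.41 for Gja1 (permutation p = 0.182, adjusted p = 0.688). Gja5 had r = −0.02 and Hcn4 r = −0.30. The mean log2 level weighs all 7 markers alike, although Bmp10 had 1 read pair over all hearts, Sln 16 and Myl7 124. Counting error in such markers enters this mean in full, so these tests cannot show whether a member follows the atrial share of a heart. With the summed CPM of the markers in place of their mean log2 level, Kcnd2 turned from r = 0.39 to r = −0.88 and passed (adjusted p = 0.00099), and Kcnip2 turned from −0.32 to 0.38 (adjusted p = 0.599), so the direction for these genes depends on how the markers are combined. The highest sum, 46.8 CPM, was that of an 8-week heart, where the median of that age was 24.9. Hearts of 10 and 12 weeks reached at most 24.1 and 26.8 CPM. The r with the sum was not computed without this 8-week heart. The sum takes most of its CPM from Nr2f2 and Nppa, and Nppa, the atrial natriuretic peptide gene, had 17 times as many pairs in the strand columns.

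Finally, 74 other genes of the same machinery were examined, of which 61 passed the filter in heart. At 12 against 8 weeks 2 of the 61 rose and 3 fell, with a median difference of −0.09 log2 units, beside 4.56% of all genes in either direction (edgeR, Benjamini-Hochberg adjusted p under 0.05). Among the 22 other potassium channel subunits tested, Abcc9, the regulatory subunit of the ATP-sensitive channel, rose by 0.29 ± 0.08 log2 units (adjusted p = 0.0436). Of the 16 transcription factors tested, Nkx2-5, a regulator of cardiac muscle identity and of conduction genes, fell by 0.45 on the log2 scale (SE 0.08, adjusted p = 0.00938), Gata6 fell by 0.37 (SE 0.08, adjusted p = 0.022) and Nr2f2, an atrial identity factor, fell by 0.38 (SE 0.10, adjusted p = 0.0452). None of the 10 other connexins and gap junction partners or the 12 sodium and calcium channel subunits passed in this comparison. At 10 against 8 weeks the connexin Gja3 rose by 0.40 log2 units (adjusted p = 0.0454) and Tbx5 fell by 0.63 (adjusted p = 0.047), and at 12 against 10 weeks none passed. Beside the members, Kcnd3, the other pore of the transient outward current, was at 16.5 ± 1.70 CPM in heart, Kcne1, the partner of Kcnq1, at 4.03 ± 1.48, and Kcnj12, a relative of Kcnj2, at 35.0 ± 7.23 (SD, n = 12). The node factors Isl1 and Shox2 were at 0 and 0.589 CPM.

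The promoters of 8 members were found among the RefSeq promoters (GRCm38.p6), Kcnq1 having none in that table, and each was located at a single place in GRCm39. The 250 bases before the start site were searched on both strands for CACGTG (the E-box bound by clock factors), TTANGTAA, AGGTCA (bound by nuclear receptors), AGATAA (bound by GATA factors) and TATAAA. The windows that held a match are shown with the motif in capitals, on the plus strand of GRCm39.
Kcnj2: gggaagcgcagcCACGTGcgctccgattgg
Hcn2: gTGACCTtgggttcgtccttggcctcagtt
Hcn2: caaggggctgacTGACCTtgagcctgcttg
Gja1: gaaactacaactTTATCTtgaccaggttgc
CACGTG occurred in Kcnj2 (chr11:110956894-110956923), 84 bases before the RefSeq start, and in 6.02% of the 32851 promoters searched in the same way. AGGTCA occurred in Hcn2 as its reverse complement TGACCT at 2 places (chr10:79552218-79552247 and chr10:79552288-79552317), and in 14.0% of promoters. AGATAA occurred in Gja1 as TTATCT (chr10:56253249-56253278), 135 bases before the RefSeq start, and in 9.99% of promoters. GENCODE M39 starts Gja1 at position 56253241 and Hcn2 at 79552120. The windows of these genes therefore lie inside the GENCODE genes, while that of Kcnj2 lies before its GENCODE start, 110956981. No member held TTANGTAA (2.06% of promoters) or TATAAA (12.4%). Kcna5, the member opposed to Kcnj2 over the 12 hearts, held none of the 5 motifs, which says only that these letters were not in its window.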

How the data were processed

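RNA of heart, kidney and liver was sequenced from 4 mice per tissue and age. The authors inspected the reads with FastQC 0.11.9, trimmed them with cutadapt 4.2 and aligned the pairs with STAR 2.7.11b to GRCm39 with Ensembl 113, and deposited counts of read pairs per gene, not normalized, both ignoring strand and split by strand. STAR counts only pairs with a single place in the genome that overlap a single gene, so genes that share sequence or, without strand, bases with another are understated. The counts that ignore strand were used here. Between 21.16% and 31.44% of read pairs in a library were unmapped or fell on no gene, several genes or several places, and were left out of library sizes and tests.

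Names and exons came from GENCODE M39 (GRCm39). The study's filter was applied per tissue: some age group needs 2 or more libraries above 0 and a mean count of 10 or more. Ages were compared with edgeR 4.0.16 in R 4.3.3 (TMM, estimateDisp, glmQLFit and glmQLFTest) in a model of all 12 libraries of a tissue with a mean per age, and tissues and interactions in a model of all 36 libraries with a mean per group. The Benjamini-Hochberg adjustment covered all genes kept, and a call needed an adjusted p under 0.05. Ratios were compared with exact permutation tests over all 70 divisions of 4 and 4 libraries, on counts plus 0.5. Correlations used permutation tests with 100000 resamples, two-sided. Poisson intervals and ratios of low counts cover counting error only.

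Alternatives were limma-voom (limma 3.58.1), DESeq2 1.42.0, RLE factors, library size alone, no filter, edgeR's filterByExpr, the columns of single strands, a replicate block, a fit of 2 ages only and each library left out. The fits were tested on simulated data. The members, lists and tests were chosen with earlier results of these data known. Genes named beside the members are the partners past the adjusted p, the partners needed to say what a member does, and for each member the 2 most alike genes. Same-numbered libraries did not deviate together throughout: the correlation of their deviations from the group means over 12537 genes lay between −0.213 and 0.181 for ages of a tissue with a median of 0.009, and between −0.006 and 0.263 for tissues of an age, with a median of 0.122 and 23 of 36 over 0.1. All 4 pairs were over 0.1 between heart and kidney at 8 weeks and between kidney and liver at 10 weeks, but not in the other combinations. The labels do not say whether same numbers mark the same animal, and these correlations do not settle it for tissues of an age. The main fits took all 36 libraries as independent, and the tissue fit with a block of age and number is among the alternatives. No libraries were duplicates of each other. Some genes and sequence stretches of these lists are not reported here, while counts over the lists include them.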

Additional observations from a re-analysis of the deposited data

Results flagged for a closer look

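Each member was examined in each of the 9 groups where its mean count was 10 or more. The 3 ratios between members were examined at each age in heart. A library stood apart by its gap to the nearest other library of the group, as a share of the group's range. Among these 72 groups of 4 values, 5 had such a gap, all of them for members and none for ratios, and chance gives about 1 in 20. In heart at 8 weeks, Kcnj2 was at 78.9 CPM in replicate 1 and at 53.8 to 54.6 CPM in the other 3 hearts. This is the library in which Gja1 was the highest and Kcnd2 and Kcna5 the lowest of their age, and the calls that change without it stand beside those genes. In heart at 12 weeks, Hcn2 was at 30.2 CPM in replicate 1 and at 25.0 to 25.2 in the others. In kidney at 10 weeks, Hcn2 was at 2.35 CPM in replicate 1 and at 1.54 to 1.58 in the others. In liver, Gja5 was at 1.44 CPM in 8-week replicate 2, against 0.549 to 0.602 in the others, and at 1.26 CPM in 12-week replicate 1, against 0.485 to 0.576.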

How the results depend on the processing

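All 9 members were higher in heart than in kidney and liver under every setting tried, and all passed except Gja5 against kidney with library size alone (0.25 log2 units, adjusted p = 0.105). The number of members past the adjusted p was 0 in every comparison of ages in edgeR with all libraries, and the settings that changed it were these. At 10 against 8 weeks in heart, DESeq2 gave 1 (Kcnd2) and no filter on low counts 2 (Kcnd2 and Kcna5). No filter also gave 1 in heart at 12 against 10 weeks (Gja1, −0.37 log2 units), 1 in kidney at 12 against 8 weeks (Kcnj2) and 1 for the interaction between heart and kidney (Kcnj2). Leaving out each library in turn gave 0 to 1 in heart at 12 against 8 and at 10 against 8 weeks, the 1 being Kcna5 without 8-week replicate 1, and 0 in the other comparisons of ages.

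The summed CPM of the atrial markers, in place of their mean log2 level, gave 1 member past the adjusted p (Kcnd2, r = −0.88, where the main value was 0.39). With the longest transcript 6 of the 8 neighbouring pairs in the order of levels kept their order. Of the pairs of members, 1 passed after the age means were removed (Kcnj2 with Kcna5) and 0 without 8-week replicate 1, settings chosen after seeing the data.

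A replicate block gave 0 members in every comparison of ages and 9 against both tissues. The labels do not say that the numbers pair the samples, so the main fits did not take them as pairs. Over all genes in heart the block gave 731, 232 and 15 calls at 12 against 8, 10 against 8 and 12 against 10 weeks, where the fit without it gave 691, 161 and 6. DESeq2 gave 1245, 366 and 54, no filter 1133, 798 and 308, and a fit of 2 ages only 461, 185 and 6. At 10 against 8 weeks limma-voom gave 107 and the second strand 81, and at 12 against 10 weeks library size alone gave 12. Leaving out a library gave 172 (12-week replicate 3) to 1850 (12-week replicate 4), 32 (8-week replicate 2) to 410 (10-week replicate 2) and 2 to 11. In kidney, at 12 against 8, 10 against 8 and 12 against 10 weeks, DESeq2 gave 130, 664 and 657 calls over all genes and no filter 513, 1005 and 938, where edgeR with the filter gave 10, 164 and 85. In liver DESeq2 gave 423, 356 and 486 and no filter 330, 350 and 271, where it gave 35, 3 and 8. The interactions gave 218 and 1340 calls by DESeq2 where edgeR gave 22 and 821, and 144 without a filter between heart and kidney. Leaving out a library in the same 3 comparisons gave 4 to 30, 23 to 334 and 26 to 397 in kidney, the most without 12-week replicate 4 and, in the last 2, 10-week replicate 4. In liver it gave 2 to 84, 2 to 84 and 1 to 112, the most without 10-week replicate 2 and, in the last, 8-week replicate 4. The interactions went from 7 to 129 between heart and kidney and from 453 to 1471 between heart and liver, so the shares of all genes printed beside the members are uncertain. The cause was not tested. With 9 to 40 pairs per library, counting error limits what liver can show of Kcnq1.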

Other observations

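Further clock genes were set beside the members over the 12 hearts after the levels had been seen, so the values are given as a description. Nr1d1, a repressor of the clock, was at 90.6, 55.9, 33.5 and 40.6 CPM at 8 weeks, at 104, 70.4, 136 and 112 CPM at 10 weeks, and at 102, 110.0, 95.3 and 60 CPM at 12 weeks. Its r was −0.76 with Kcna5, 0.71 with Gja1 and 0.69 with Kcnj2. Bmal1, an activator of the clock, was at 1.11 to 1.62 CPM at 8 weeks, 1.44 to 11.3 CPM at 10 weeks and 1.03 to 4.03 CPM at 12 weeks, with r = 0.69 with Gja1, which lay between 0.55 and 0.90 with any heart left out and was 0.46 without the 2 hearts farthest from the median of Bmal1. It had r = 0.32 with Kcnj2 and −0.35 with Kcna5. Per1 had r = −0.57 with Gja1, −0.36 with Kcnj2 and 0.54 with Kcna5, and Per3 −0.59, −0.29 and 0.26. Dbp, a target of the clock, did not show this pattern, with −0.23, 0.18 and −0.09 for the same genes. The members of both pairs that passed in heart, Kcnj2, Kcna5 and Gja1, are those with the highest size of r with Nr1d1. The hour at which each heart was collected is not given in the sources used here.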
